A study of Mus musculus with 12 samples.

Results

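The mitochondrial beta-oxidation core and the electron transfer flavoprotein system were described here as 10 genes: Acadvl, Acadl, Acadm, Acads, Hadha, Hadhb, Hadh, Etfa, Etfb and Etfdh. They were listed by name, from the known steps of the pathway, with earlier results of these data known. Of the 10 genes, 8 had at least 1 probe set annotated to that gene alone, with 11 such probe sets among the 45141 on the array. Hadha had no probe set in the annotation used, and the listed probe set of Etfb also carries the name of Vsig10l, so these 2 genes are not analysed here. All 8 measured genes stayed among the 10258 genes tested.

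Liver RNA was measured on 12 arrays in male mice that lacked Pml (knockout, KO) or carried it (wild type, WT). Pml encodes the protein that builds the nuclear bodies named after it, and the study's title links it to PPAR signalling and fatty acid burning. KO mice on the high-fat diet, KO mice on the low-fat diet, WT mice on the high-fat diet and WT mice on the low-fat diet each gave 3 extracts, out of 8 mice in a group. Fat supplied 60% of calories in the high-fat diet and 10% in the low-fat diet, the feeding lasted 20 weeks, and all mice fasted for 8 h before tissue was taken. Strain, age and the way the Pml allele was made are not given in the sources used here. The labels do not state outright that each extract came from its own mouse, so p-values describe how these extracts vary. With 3 arrays in each group, precision is limited by their number.

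In beta-oxidation, fatty acids inside the mitochondrion are shortened from the end that carries coenzyme A, in a cycle of oxidation, hydration, a further oxidation and cleavage. An acyl-CoA dehydrogenase matched to the chain length opens each cycle and passes its electrons to the electron transfer flavoprotein, which hands them through its ubiquinone oxidoreductase to the respiratory chain. In liver the pathway supplies energy and feeds ketone body formation during fasting, and many of its genes are known targets of the fatty acid receptor PPAR alpha.

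The 12 arrays were alike, since any 2 of them correlated at r = 0.986 to 0.995 over the probe sets, which are no independent replicates. Pml itself had log2 signals from 3.04 to 3.82 in the KO extracts, against 4.92 to 5.40 in the WT extracts, and was lower in KO over both diets (log2 change -1.66, SE 0.133, limma, Benjamini-Hochberg adjusted p = 0.000225). The KO signals lay under 4.08, the lowest mean among the genes tested. How far dim signal limits the size of this change was not tested. The labelled tissue fitted its markers: the 8 measured hepatocyte markers averaged 12.3 to 12.5 in high-fat and 12.4 to 12.5 in low-fat extracts, while adipocyte markers stayed between 3.16 and 3.48 in all 12. Macrophage and Kupffer cell markers averaged 5.43 to 6.89 in high-fat and 4.88 to 6.60 in low-fat extracts, with the lowest values in KO low-fat replicate 2 and KO high-fat replicate 3. In bulk liver, fewer cells of a type and less RNA per cell cannot be told apart.

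The 250 bases before the RefSeq start site (build GRCm38.p6) are shown for 4 genes that stand for the steps of the pathway: a pair of acyl-CoA dehydrogenases, the thiolase subunit and the oxidoreductase. Capitals mark the nuclear receptor half-site AGGTCA, the GC box GGGCGG and the CCAAT box CCAAT, on either strand, and each line runs 5′ to 3′ toward its gene. The windows lie at chr3:153944644-153944893 (minus strand) for Acadm, chr11:70015429-70015678 (minus) for Acadvl, chr5:30155003-30155252 (plus) for Hadhb and chr3:79628768-79629017 (minus) for Etfdh.
Acadm: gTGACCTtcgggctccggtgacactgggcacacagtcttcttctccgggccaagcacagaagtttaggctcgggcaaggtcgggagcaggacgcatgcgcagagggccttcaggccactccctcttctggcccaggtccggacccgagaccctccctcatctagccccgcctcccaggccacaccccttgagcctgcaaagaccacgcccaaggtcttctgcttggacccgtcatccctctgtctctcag
Acadvl: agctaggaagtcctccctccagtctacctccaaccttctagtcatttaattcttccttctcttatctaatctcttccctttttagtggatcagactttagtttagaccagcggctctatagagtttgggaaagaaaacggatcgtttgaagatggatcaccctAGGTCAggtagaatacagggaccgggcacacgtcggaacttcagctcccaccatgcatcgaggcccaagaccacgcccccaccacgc
Hadhb: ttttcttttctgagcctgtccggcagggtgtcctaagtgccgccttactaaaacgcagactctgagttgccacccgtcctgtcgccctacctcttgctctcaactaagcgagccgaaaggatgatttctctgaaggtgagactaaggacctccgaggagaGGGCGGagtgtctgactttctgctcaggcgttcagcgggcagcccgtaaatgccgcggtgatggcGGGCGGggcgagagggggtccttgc
Etfdh: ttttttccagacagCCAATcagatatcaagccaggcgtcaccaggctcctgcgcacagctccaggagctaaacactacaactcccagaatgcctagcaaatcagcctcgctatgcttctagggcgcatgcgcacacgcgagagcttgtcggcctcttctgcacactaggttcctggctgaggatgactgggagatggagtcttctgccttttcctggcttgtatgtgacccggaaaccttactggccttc

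All 10 genes had a window in the RefSeq promoter table. The full direct repeat, AGGTCA written again after 1 base of any kind, is the arrangement bound by PPAR and RXR. It was in 0 of the 10 windows, also with 1 mismatch allowed, against 0.0335% of all 32851 windows in the table, or 0.484% with the mismatch. The longer half-site TCAAGGTCA, known for the oestrogen-related receptors, was in 0 of 10 and in 0.387% of all windows. The bare half-site AGGTCA lies inside both of these patterns and was in 2 of the 10, Acadm at bases -249 to -244 on the reverse strand and Acadvl at bases -87 to -82, while 14% of all windows hold it. GC boxes were in 5 windows, those of Acadl, Acads, Hadha, Hadhb and Hadh, against 32.7% of all windows. CCAAT boxes were in 4, those of Hadh, Etfa, Etfb and Etfdh, against 33.8%. Hadha and Hadhb lie head to head, with 272 bases between their start sites, so their windows share 228 bases. A match or its absence concerns these letters in this window and says nothing of a factor's binding.

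The high-fat diet went with higher signals of most of the pathway. Averaged over both genotypes, 6 of the 8 genes rose on the high-fat diet, Etfdh, Hadhb, Acadm, Acadl, Hadh and Acadvl, against 2.57% of all tested genes that rose and 1.99% that fell. The changes were small, from 1.15-fold for Acadvl to 1.33-fold for Etfdh, with the median of the 8 at 0.25 on the log2 scale, against -0.004 over all tested genes. The brightest probe sets of the 8 genes lay at percentiles 92.8 to 99.8 of mean signal among single-gene probe sets. No share was taken over genes of like brightness. All 8 log2 changes lay above 0, as did 48.8% of all genes. In 5 of the 8 (Acadm, Acadl, Hadhb, Hadh and Etfdh) every one of the 6 high-fat extracts was above every one of the 6 low-fat extracts, which held for 1.8% of all genes.

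**Figure D1:**
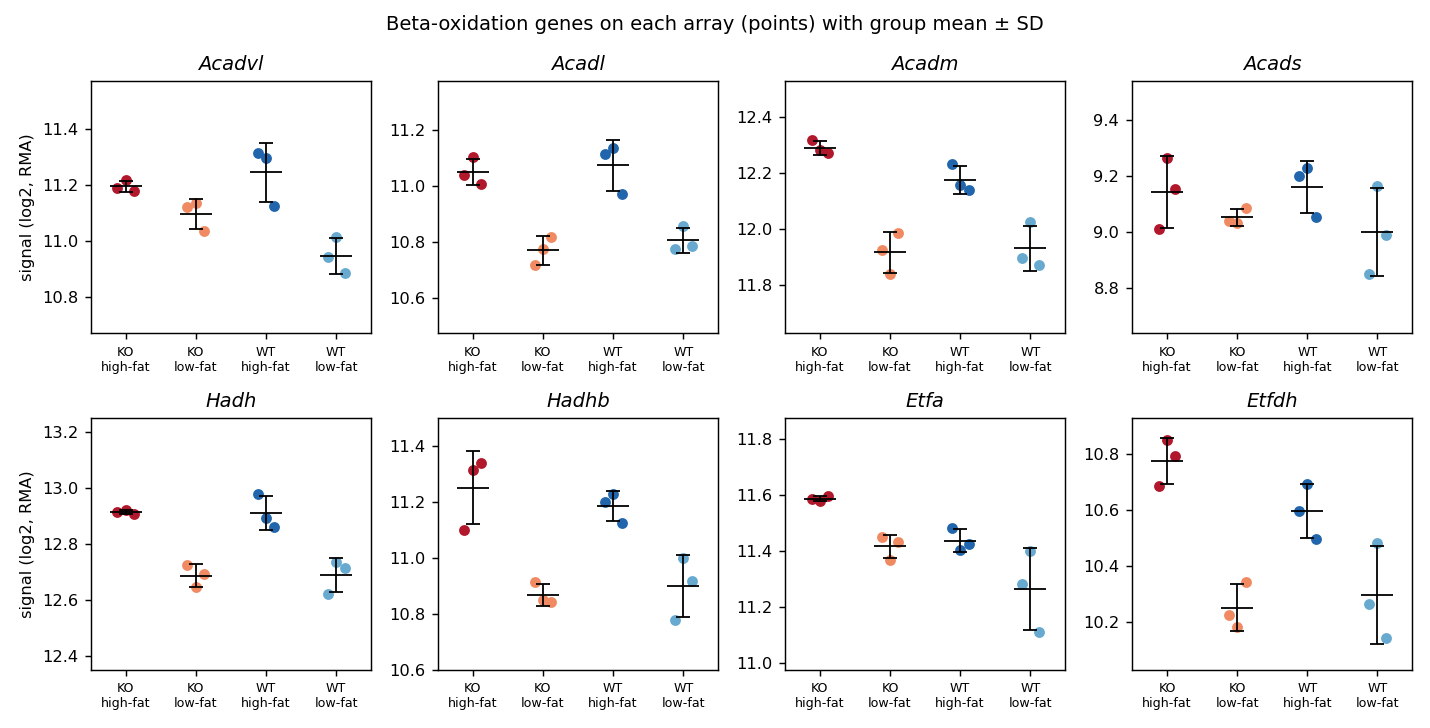
Log2 RMA signal (y axis, one scale length but a different position in each panel) of the brightest probe set of each of the 8 genes, with 1 point per array and the group mean ± SD over 3 arrays. KO high-fat, KO low-fat, WT high-fat and WT low-fat extracts run left to right, and in Acadm, Acadl, Hadhb, Hadh and Etfdh all 6 high-fat points sit above all 6 low-fat points.

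Acadvl encodes the dehydrogenase of very long chains, which is bound to the inner mitochondrial membrane (chr11:70010183-70015428). In KO extracts its log2 signals were 11.19, 11.22 and 11.18 on the high-fat diet, against 11.12, 11.13 and 11.03 on the low-fat diet. In WT extracts they were 11.31, 11.29 and 11.12 on the high-fat diet, against 10.94, 11.01 and 10.88 on the low-fat diet. The diets did not overlap within either genotype, but WT high-fat replicate 3 lay below the highest KO low-fat extract. Averaged over genotypes Acadvl rose by 0.20 on the log2 scale (SE 0.0439, limma, Benjamini-Hochberg adjusted p = 0.0237). This call was lost when KO high-fat replicate 2, WT high-fat replicate 1, WT high-fat replicate 2, WT low-fat replicate 1 or WT low-fat replicate 3 was left out, with adjusted p between 0.0538 and 0.0676.

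Acadl, the dehydrogenase of long chains, is encoded at chr1:66830839-66863309. Its brighter probe set read 11.04, 11.10 and 11.01 in KO high-fat extracts, against 10.72, 10.77 and 10.82 in KO low-fat extracts. WT high-fat extracts read 11.11, 11.14 and 10.97, against 10.77, 10.86 and 10.79 in WT low-fat extracts. The lowest high-fat extract of either genotype was above the highest low-fat one. Acadl rose by 0.27 (1.21-fold, SE 0.0423, adjusted p = 0.00405, limma). A second Acadl probe set averaged 3.04 on the log2 scale, lay under the filter on dim signals, and differed by 0.03 between the diets, with overlapping extracts.

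Acadm encodes the medium-chain dehydrogenase (chr3:153922353-153944643), whose loss in people causes the commonest inherited defect of the pathway. KO high-fat extracts had 12.32, 12.28 and 12.27, against 11.92, 11.84 and 11.99 in KO low-fat extracts. WT high-fat extracts had 12.23, 12.16 and 12.14, against 11.89, 12.02 and 11.87 in WT low-fat extracts. The 3 KO high-fat extracts were the highest of all 12 and lay within 0.05 of each other. Acadm rose by 0.31 (1.24-fold, SE 0.0388, adjusted p = 0.00107, limma), the smallest adjusted p of the 8 genes.

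Acads, the short-chain dehydrogenase (chr5:115110299-115119346), did not pass. It had 9.01, 9.26 and 9.15 in KO high-fat extracts, against 9.04, 9.03 and 9.09 in KO low-fat extracts. In WT the high-fat extracts had 9.20, 9.23 and 9.05, against 8.85, 9.16 and 8.99 in the low-fat extracts. The diets overlapped in both genotypes. The average difference was 0.13 (95% interval -0.02 to 0.27, SE 0.0662, adjusted p = 0.326, limma), so a rise of the size seen in Acadvl lies inside its interval.

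Hadhb encodes the thiolase subunit of the trifunctional protein, which completes the cycle for long chains (chr5:30155253-30184593). Its brighter probe set had 11.10, 11.31 and 11.34 in KO high-fat extracts, against 10.91, 10.85 and 10.84 in KO low-fat extracts. In WT it had 11.20, 11.23 and 11.12 in high-fat extracts, against 10.78, 10.997 and 10.92 in low-fat extracts. The lowest high-fat value of the 6, in KO high-fat replicate 1, still exceeded the highest low-fat value, in WT low-fat replicate 2. Hadhb rose by 0.33 (1.26-fold, SE 0.0525, adjusted p = 0.00454, limma).

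The second Hadhb probe set gave another picture. It averaged 5.47 on the log2 scale, and its diet difference, fitted beside all 17338 tested probe sets, was -0.08 (SE 0.146, adjusted p = 0.847, limma). Its difference was 0.19 in KO (adjusted p = 0.732) and -0.34 in WT (adjusted p = 0.723), with overlapping diets in both. Across the 12 arrays it had r = -0.18 with the brighter probe set of Hadhb. With the mean of each gene's probe sets in place of the brightest, the calls of Hadhb (0.13, adjusted p = 0.402) and Acadl (0.15, adjusted p = 0.208) were lost.

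Hadh, the dehydrogenase that oxidises hydroxyacyl-CoA of medium and short chains (chr3:131233419-131272101), is measured by a pair of bright probe sets. The brighter one had 12.92, 12.92 and 12.91 in KO high-fat extracts, against 12.72, 12.65 and 12.69 in KO low-fat extracts, and it is of the kind whose probes may match further transcripts. It had 12.98, 12.90 and 12.86 in WT high-fat extracts, against 12.62, 12.74 and 12.71 in WT low-fat extracts. High-fat extracts were above low-fat extracts throughout. Hadh rose by 0.22 (1.17-fold, SE 0.0322, adjusted p = 0.00258, limma).

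The second Hadh probe set followed the first, with r = 0.93 over the 12 arrays. It had 11.52, 11.50 and 11.44 in KO high-fat extracts, against 11.07, 10.93 and 11.07 in KO low-fat extracts. In WT it had 11.46, 11.37 and 11.35 in high-fat extracts, against 11.09, 11.30 and 11.10 in low-fat extracts. Its diets did not overlap either, and its average rise was 0.35 (1.27-fold, SE 0.0483, adjusted p = 0.00221, limma over probe sets).

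Etfa encodes the alpha subunit of the electron transfer flavoprotein (chr9:55454436-55512243). It had 11.58, 11.58 and 11.60 in KO high-fat extracts, against 11.45, 11.37 and 11.43 in KO low-fat extracts. WT high-fat extracts had 11.48, 11.40 and 11.42, against 11.28, 11.40 and 11.11 in WT low-fat extracts. Within each genotype the diets did not overlap, in WT by a margin smaller than the rounding shown, and the KO low-fat extracts overlapped the WT high-fat ones. The average difference of 0.17 (95% interval 0.07 to 0.27, SE 0.0468) had an adjusted p of 0.0583 by limma and did not pass. Without WT low-fat replicate 2, the extract nearest to the high-fat values, it passed (adjusted p = 0.0195).

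Etfdh encodes the oxidoreductase that passes electrons from the flavoprotein to ubiquinone (chr3:79603788-79628767). KO high-fat extracts had 10.69, 10.85 and 10.79, against 10.23, 10.18 and 10.34 in KO low-fat extracts. WT high-fat extracts had 10.60, 10.69 and 10.50, against 10.26, 10.48 and 10.14 in WT low-fat extracts. The KO extracts of both diets were far apart, whereas WT high-fat replicate 3 and WT low-fat replicate 2 nearly met. Etfdh rose by 0.41 (1.33-fold, SE 0.0632, adjusted p = 0.00404, limma), the largest average change among the 8.

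**Figure D2:**
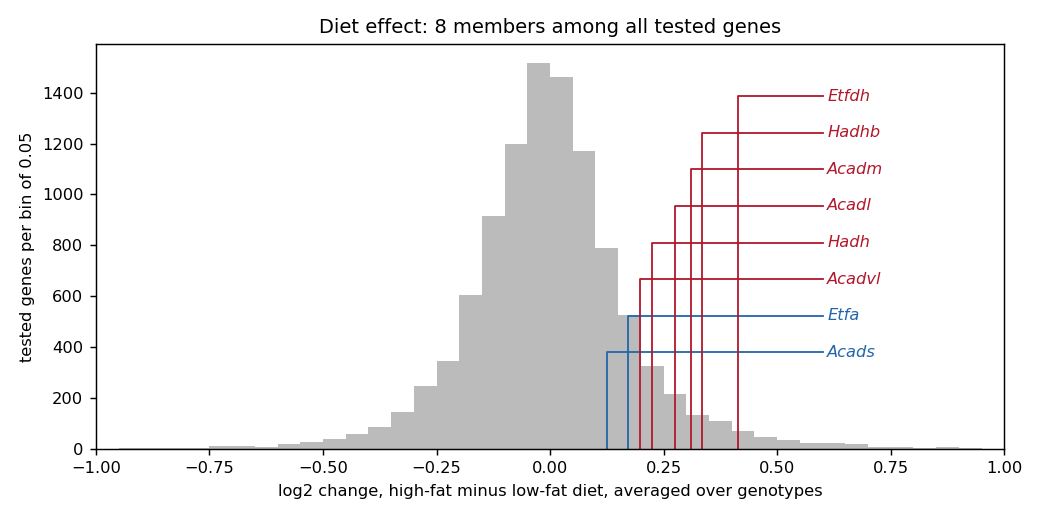
Number of tested genes (y axis) by log2 change between high-fat and low-fat diet, averaged over genotypes, in bins of 0.05, with the x axis shown from -1 to 1. Lines place the 8 genes, all right of 0 from 0.13 to 0.41, in red where limma's adjusted p was under 0.05 and in blue for Etfa and Acads, which did not pass.

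Within the KO livers the diet comparison named 5 of the 8 genes as higher on the high-fat diet, against 1.75% of all tested genes. Etfdh rose by 0.53 (1.44-fold, adjusted p = 0.0118), Hadhb by 0.38 (adjusted p = 0.0189), Acadm by 0.37 (adjusted p = 0.00448), Acadl by 0.28 (adjusted p = 0.0288) and Hadh by 0.23 (adjusted p = 0.0229), all by limma with Benjamini-Hochberg adjustment. Etfa differed by 0.17 (adjusted p = 0.185), Acadvl by 0.10 (adjusted p = 0.441) and Acads by 0.09 (adjusted p = 0.675), and these did not pass. The diets did not overlap in 7 of the 8, all but Acads, which held for 10.8% of all genes. Calls over all tested genes also depended on the setting, from 68 to 655 in KO under the alternatives (311 in the main fit). The count of 5 fell to 3 without KO high-fat replicate 1 and to 1 without KO high-fat replicate 2. The same count fell to 2 without KO high-fat replicate 3 and to 2 without KO low-fat replicate 2. It was 0 when KO low-fat replicate 2 and KO high-fat replicate 3, the extracts with the lowest macrophage markers, were both left out (0.673% of all genes passed), a choice made after seeing the data. The log2 changes then were 0.34 for Acadm (adjusted p = 0.0550) and 0.48 for Etfdh (adjusted p = 0.103), with the median of the 8 at 0.26, against 0.25 with all arrays.

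Within the WT livers 0 of the 8 genes passed by limma, against 0.078% of all genes that rose. The log2 differences were of a like size: 0.30 for Etfdh (adjusted p = 0.281) and for Acadvl (adjusted p = 0.0770), 0.29 for Hadhb (adjusted p = 0.184) and 0.27 for Acadl (adjusted p = 0.1002). Acadm differed by 0.25 (adjusted p = 0.1002), Hadh by 0.22 (adjusted p = 0.0770), Etfa by 0.17 (adjusted p = 0.463) and Acads by 0.16 (adjusted p = 0.685). At an unadjusted p under 0.05 the count was 7 of 8, against 4.35% of all genes, and the diets did not overlap in 7 of 8, against 7.83%. The median of the 8 was 0.26 in WT and 0.25 in KO. With array weights in the limma fit 5 of the 8 passed in WT, where 1.06% of all genes passed in either direction.

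The difference between the diet effects in KO and in WT was tested directly, and 0 of the 8 genes passed, nor did any other tested gene (0%). The effect of the high-fat diet was larger in KO by 0.22 for Etfdh (95% interval -0.05 to 0.50, adjusted p = 0.881), 0.13 for Acadm (-0.04 to 0.30, adjusted p = 0.887) and 0.10 for Hadhb (-0.13 to 0.33, adjusted p = 0.932), all by limma. It was smaller in KO for Acadvl, at -0.20 (-0.39 to -0.01, adjusted p = 0.852), and it alone of the 8 had an unadjusted p under 0.05, as 2.7% of all genes did in that direction. For Acadl the difference was 0.01 (-0.17 to 0.20) and for Hadh 0.01 (-0.13 to 0.15). The second Hadh probe set had a larger difference of 0.24 (SE 0.0966, adjusted p = 0.870, limma over probe sets). The calls in KO and their absence in WT therefore do not show that the genotypes answered the diet differently.

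**Figure D3:**
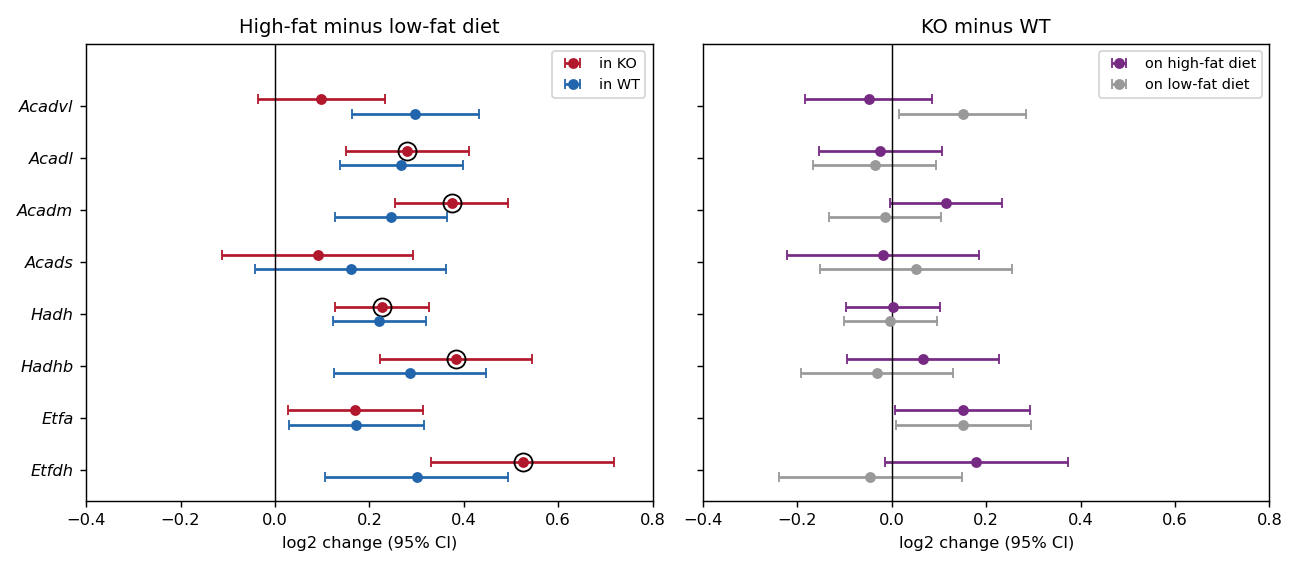
Log2 change (x axis) of the 8 genes with its 95% interval from limma, high-fat minus low-fat diet on the left (KO red, WT blue) and KO minus WT on the right (high-fat purple, low-fat grey). Black rings mark an adjusted p under 0.05, which occurs in 5 genes for the diet in KO and nowhere for genotype.

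Loss of Pml changed none of the 8 genes past the threshold. Averaged over both diets, 0 of 8 passed by limma, against 0% of all genes that rose and 0.0195% that fell, and the median KO minus WT difference of the 8 was 0.03. At an unadjusted p under 0.05 there was 1 gene, Etfa, as in 3.51% of all genes that were higher. Etfa was higher in KO by 0.15 (95% interval 0.05 to 0.25, SE 0.0468, adjusted p = 0.596), and its log2 mean was 11.59 ± 0.0082 in KO high-fat, 11.42 ± 0.0426 in KO low-fat, 11.44 ± 0.0417 in WT high-fat and 11.26 ± 0.146 in WT low-fat extracts (SD, n = 3 each, limma over all arrays). The difference of Etfa was 0.15 on each diet, and KO and WT extracts overlapped on the low-fat diet only. The intervals of the other 7 held 0: they ran from -0.03 to 0.13 for Acadm, -0.12 to 0.06 for Acadl, -0.04 to 0.15 for Acadvl and -0.13 to 0.16 for Acads. Those of the remaining genes were -0.10 to 0.13 for Hadhb, -0.07 to 0.07 for Hadh and -0.07 to 0.20 for Etfdh. These intervals are not adjusted for the number of genes. All 9 tested liver endothelial markers had a KO minus WT difference below 0. Their median was -0.32 over both diets and -0.48 on the high-fat diet. Of all tested genes, 52.2% lay above 0 over both diets and 51.5% on the high-fat diet. By limma 0 of the 9 passed. At an unadjusted p under 0.05, 0 were lower over both diets (3.75% of all genes) and 1 on the high-fat diet (2.2%). On the high-fat diet neutrophil markers averaged 4.31 to 4.39 in KO and 4.12 to 4.27 in WT extracts, without overlap. Lymphocyte markers there averaged 4.19 to 4.26 in KO and 4.15 to 4.18 in WT. Skeletal muscle markers did not overlap on the low-fat diet, at 3.97 to 4.18 in KO and 3.85 to 3.92 in WT. These means lay near 4.08, the lowest mean among the genes tested. The part of the endothelial and these other markers in the genotype values was not tested.

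On the high-fat diet alone 0 of the 8 passed by limma (0% of all genes rose). At an unadjusted p under 0.05 there was 1, Etfa, against 2.25% of all genes, and the extracts of KO lay above those of WT without overlap in 2 of the 8, Acadm and Etfa, as in 6.62% of all genes. The differences there were 0.18 for Etfdh (95% interval -0.02 to 0.37), 0.15 for Etfa (0.01 to 0.29) and 0.11 for Acadm (-0.004 to 0.23), each with an adjusted p of 0.996 by limma. On the low-fat diet 0 of 8 passed by limma as well (0% of all genes rose). At an unadjusted p under 0.05 there were 2, Acadvl and Etfa, against 4.56% of all genes, and 1 of 8, Acadvl, did not overlap, as in 7.09% of all genes. Acadvl was 0.15 higher in KO there (95% interval 0.02 to 0.28, adjusted p = 0.544, limma), and at -0.05 lay slightly lower in KO on the high-fat diet (-0.18 to 0.09). The second probe set of Hadh was below WT in all 3 KO low-fat extracts, at -0.14 (adjusted p = 0.625, limma over probe sets), whereas the brighter one differed by -0.003. The dimmer probe set of Hadhb lay below WT in the 3 KO low-fat extracts as well, at -0.51 (adjusted p = 0.575), against -0.03 for the brighter one.

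The 8 genes varied together over the 12 arrays. Pearson's r ranged from 0.54 to 0.95 over their 28 pairs, with a median of 0.78. With each group's mean removed, which takes out diet and genotype, r still ranged from 0.18 to 0.86 with a median of 0.50, and all 28 were above 0. The values of an array share 1 extract and 1 normalization, and these correlations are a description without a test. Against the mean of the other 7, Etfdh had r = 0.945, Acadm 0.940 and Hadh 0.934 at the upper end, and Acads 0.734 and Etfa 0.751 at the lower. The mean profile of the 8, each centred on its own mean, lay between 0.03 and 0.19 on the log2 scale in the high-fat extracts and between -0.20 and -0.04 in the low-fat extracts.

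Among the other 10250 tested genes, the 5 with the highest r to this mean profile over the 12 arrays were Dhrs4 (r = 0.968), Eci1 (r = 0.968), Ech1 (r = 0.959), Mrpl17 (r = 0.956) and Ugt3a2 (r = 0.954). Dhrs4 encodes a peroxisomal carbonyl reductase, Mrpl17 a protein of the mitochondrial ribosome and Ugt3a2 a glycosyltransferase. Eci1 and Ech1 encode isomerases that bring unsaturated fatty acids into beta-oxidation. Because the mean profile separates the diets, this choice fixes a diet difference in these genes, and their values are a description. Their average log2 diet changes were 0.37 for Dhrs4, 0.70 for Eci1, 0.69 for Ech1, 0.31 for Mrpl17 and 0.23 for Ugt3a2.

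Other genes of mitochondrial fatty acid oxidation moved with the diet in part. Of 18 listed, 16 were tested. Averaged over genotypes 6 rose and 1 fell (limma), against 2.57% and 1.99% of all tested genes. The median of the list was 0.24, against -0.004 over all tested genes. Eci1 rose by 0.70 (1.62-fold, adjusted p = 0.000166), Hsd17b10, a dehydrogenase of branched and short chains, by 0.40 (adjusted p = 0.00258) and Decr1, the reductase for polyunsaturated chains, by 0.34 (adjusted p = 0.0156). Cpt2 and Slc25a20, which complete the carnitine shuttle, rose by 0.38 each (adjusted p = 0.0444 and adjusted p = 0.0210), and the isomerase Eci2 by 0.26 (adjusted p = 0.0475). Acsl5, which activates fatty acids, fell by 0.38 (adjusted p = 0.00670). The thioesterase Acot2, at 0.49 (adjusted p = 0.180), and the carnitine importer Slc22a5, at 0.40 (adjusted p = 0.129), had large differences but did not pass. Within WT livers Eci1 alone of the list passed by limma (0.67, adjusted p = 0.0142), where 0.078% of all tested genes rose. Within KO livers Eci1 (0.73, adjusted p = 0.00274), Slc25a20 (0.48, adjusted p = 0.0469) and Hsd17b10 (0.47, adjusted p = 0.0122) passed, where 1.75% of all tested genes rose.

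The flavoprotein also takes electrons from dehydrogenases of amino acid and choline breakdown. Of 11 such genes listed, 8 were tested, with a median of 0.14 averaged over genotypes. In that comparison 2 of the 8 rose with the high-fat diet, against 2.57% of all tested genes. They were Sardh, sarcosine dehydrogenase, at 0.37 (1.29-fold, adjusted p = 0.00431), and Gcdh, glutaryl-CoA dehydrogenase, at 0.25 (1.19-fold, adjusted p = 0.0247). In KO livers Sardh rose by 0.45 (adjusted p = 0.0139, limma) and Gcdh by 0.39 (adjusted p = 0.0244, limma), where 1.75% of all tested genes rose. In WT livers 0 of the 8 passed by limma. At an unadjusted p under 0.05 there was 1 higher in WT, as were 4.35% of all tested genes. Acad9 and Acad11 stand in this list and in the one before, and neither passed.

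Downstream of Etfdh, 10 of 13 listed genes of ubiquinone synthesis, complex III and cytochrome c were tested. Their median diet change averaged over genotypes was 0.06, and 0 passed by limma. At an unadjusted p under 0.05 there was 1 higher, as were 9.55% of all tested genes. Genes taken as a gauge of mitochondrial content gave 1 rise and 1 fall among 10 tested of 12 listed, against 2.57% and 1.99% of all tested genes. Immt, of the inner membrane's cristae junctions, rose by 0.24 (adjusted p = 0.0169, limma). Tomm20, of the outer membrane's import complex, fell by 0.22 (adjusted p = 0.0193, limma). The median of that list was 0.01, and its mean profile overlapped between the diets, at -0.02 to 0.04 in high-fat and -0.03 to 0.03 in low-fat extracts.

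**Figure D4:**
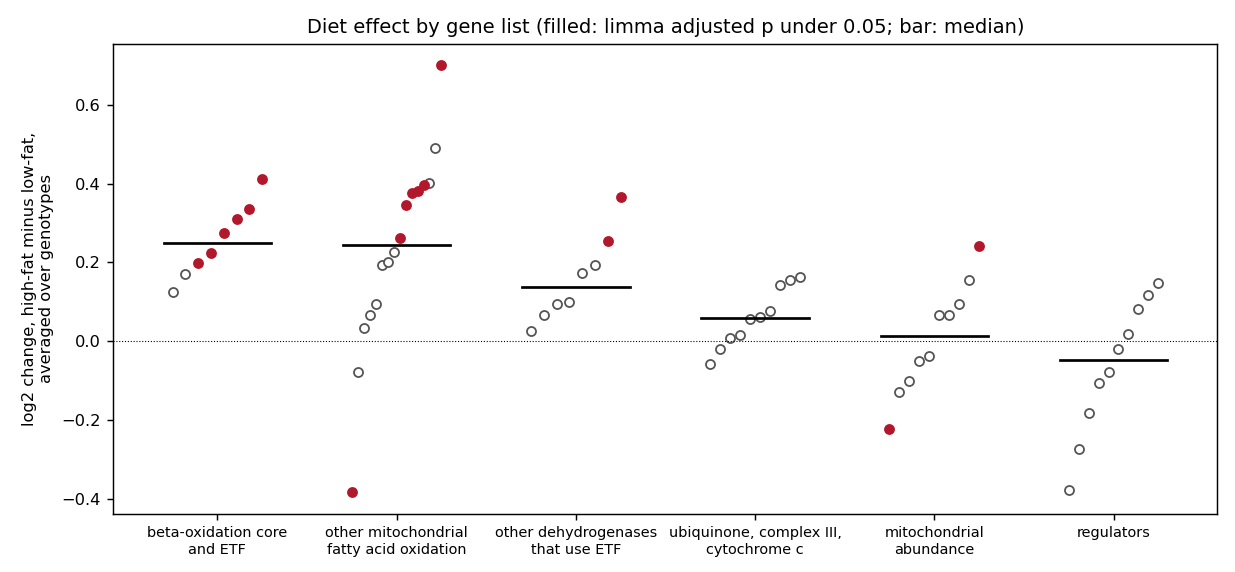
Log2 change between high-fat and low-fat diet averaged over genotypes, with 1 point per tested gene, for the 8 genes and the 5 lists of related genes. The medians lie at 0.25 for the 8 genes, 0.24 for other mitochondrial fatty acid oxidation and 0.14 for the other dehydrogenases, and at 0.06 or less for the other 3 lists.

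Markers of other cells were set beside the diet result. The 10 tested macrophage and Kupffer cell genes had a median diet difference of 0.38. Above 0 lay 10 of these markers, against 48.8% of all tested genes, and 0 passed by limma (0 also at an unadjusted p under 0.05). Their mean did not overlap between the diets in WT, at 6.30 to 6.46 in high-fat and 5.96 to 6.18 in low-fat extracts, and overlapped in KO, at 5.43 to 6.89 in high-fat and 4.88 to 6.60 in low-fat extracts. Without the 2 extracts lowest in these markers, 5 of the 8 beta-oxidation genes passed over both genotypes, against 2.52% of all genes in either direction, and Acadvl did not (adjusted p = 0.0617). The exocrine pancreas markers averaged 5.10 to 5.26 on the log2 scale in high-fat and 4.91 to 5.10 in low-fat extracts, without overlap. Of the 5 measured of 6 listed, Cela1 (mean 9.58) rose by 0.31 (adjusted p = 0.0336, limma), Prss2 differed by 0.11 (adjusted p = 0.740), and Cpa1, Amy2a5 and Ctrb1 lay under the filter on dim signals, at means of 3.22, 3.54 and 4.07. The 8 hepatocyte markers had a median diet difference of -0.06, and 0 passed by limma. Against 10.1% of all tested genes, 2 of these markers were lower at an unadjusted p under 0.05. Their mean was lower without overlap in WT, at 12.34 to 12.37 in high-fat and 12.42 to 12.49 in low-fat extracts, and overlapped in KO, at 12.35 to 12.45 in high-fat and 12.43 to 12.44 in low-fat extracts. Of 9 tested liver endothelial markers, 8 had a diet difference below 0 (median -0.26 averaged over genotypes, -0.39 in KO). Of 5 tested stellate cell markers 4 were above 0 (median 0.22), against the same 48.8% of all tested genes. Lymphocyte markers averaged 4.15 to 4.18 in WT high-fat and 4.01 to 4.13 in WT low-fat extracts, without overlap, and 4.19 to 4.26 in KO high-fat and 4.08 to 4.21 in KO low-fat extracts. The signal of actin at its 3' end minus its 5' end, a sign of RNA quality, was 1.43 ± 0.0128 in KO high-fat, 1.52 ± 0.0357 in KO low-fat, 1.58 ± 0.0650 in WT high-fat and 1.51 ± 0.304 in WT low-fat extracts (SD, n = 3 each). In KO the actin difference was lower on the high-fat diet without overlap, at 1.41 to 1.44 against 1.48 to 1.55 on the low-fat diet. It overlapped between the diets in WT. KO high-fat extracts also lay below WT high-fat extracts, which ran from 1.51 to 1.64. The part of these markers and of RNA quality in the diet and genotype results was not tested further.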

How the data were processed

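The deposited values are log2 signals of Affymetrix PM arrays, produced by the authors through RMA (version not given in the sources used here), according to the submitters' processing notes. This method usually gives all arrays a common distribution, so a shift of the whole transcriptome could be hidden. Per the labels, total RNA came from a Trizol extraction and carried a biotin label.

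Of 45141 probe sets, 104 controls were left out; 28898 carry a single gene, 551 several and 15588 none. Symbols were checked against RefSeq gene identifiers (28689 matched, 0 changed). The probe set with the highest mean stood for a gene, and the 6839 dimmest of 17097 genes (40%) were left out, which left 10258 with a mean of at least 4.08. The 4 group means were fitted jointly with limma 3.58.1 in R 4.3.3, which left 8 residual degrees of freedom and used a variance trend. The threshold was an adjusted p of 0.05 (Benjamini-Hochberg, within a comparison). Of the 7 comparisons, those that share extracts are not independent of each other. An exact permutation test of 3 against 3 arrays cannot go below p = 0.1, so none was made.

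Data were simulated for the diet comparison averaged over genotypes, with independent normal noise. Changes were put into genes drawn from all 10258, 50 genes for each size. They were recovered in 26% of genes at 0.25, 78% at 0.585 and 100% at 1 on the log2 scale. The comparisons within 1 genotype were not simulated.

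The genes and lists were chosen with earlier results of these data known. Named genes are Pml, the 10 pathway genes, the related genes that passed with at most the 3 largest changes a list (the oxidation, dehydrogenase and regulator lists), and the 5 genes most alike in profile; Immt, Tomm20 and the marker genes were named after their values were seen. Alternatives were quantile normalization, median centring, no filter or a 60% filter, the mean of probe sets, probe sets tested singly, robust variance, no trend, a fit of the compared groups alone, array weights, a threshold of 0.10, a replicate block, and the omission of 1 array at a time. Leaving out the 2 arrays lowest in macrophage markers was chosen after seeing the data. Other background corrections and scan batches could not be tried on processed values.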

Additional observations from a re-analysis of the deposited data

How the results depend on the processing

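Averaged over genotypes, the count of genes that rose with the diet stayed between 4 and 7 of 8 (6 as reported). Acadm, Hadh and Etfdh passed in all 24 alternatives and Acadl and Hadhb in 23. Among these, the threshold of 0.10 could not lose a call. With probe sets tested singly, the probe set of smallest adjusted p stood for its gene. The second Hadhb probe set, which did not pass, therefore did not count there. Acadvl passed in 17, with an adjusted p of up to 0.0748 by limma, and Etfa in 6. In KO the count of 5 became 3 with the mean of probe sets and 2 without a variance trend. With the compared groups alone the KO count was 2, where 68 of all tested genes passed. It was 0 without the 2 arrays lowest in macrophage markers, and 1 to 5 when 1 array was left out. In WT the count of 0 became 5 with array weights and 2 at an adjusted p of 0.10. Genotype and interaction counts were 0 throughout. Over all tested genes, the calls ranged from 68 to 655 in KO (311 as reported), 5 to 109 in WT (18) and 258 to 921 on average (468). Of 1376 gene values under alternatives, 0 called values changed sign, 35 calls were lost and 13 gained; of 59 sign changes among uncalled values, 1 was in a diet comparison, Hadhb in WT with the mean of probe sets (-0.03). Where not given above, the cause was not tested.

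Same-numbered extracts had correlations of deviations from -0.17 to 0.38 (median 0.06), against -0.45 to 0.25 (median -0.03) for differently numbered ones. Of 12 arrays, 6 correlated best with their own number. These values do not settle whether the numbers pair extracts, and the labels do not say so. The main fit therefore held no replicate block. With the replicate block the counts were 6 on average, 5 in KO, 0 in WT and 0 for genotype and interaction.

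With 3 arrays a group, differences of about 0.25 passed in some cases and not in others. By limma Hadh passed at 0.23 in KO (adjusted p = 0.0229), and Acadm at 0.25 did not in WT (adjusted p = 0.1002). A pair of the pathway's genes was not measured.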

Other observations

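Of 12 listed regulators of the pathway, 10 were tested, with a median diet change of -0.05 averaged over genotypes. By limma 0 passed there, and 3 had an unadjusted p under 0.05, as did 19.7% of all tested genes. Within KO livers Hnf4a, a hepatocyte transcription factor that is also among the hepatocyte markers, fell by 0.39 (adjusted p = 0.0229), and the test of the difference from WT gave -0.41 (adjusted p = 0.802). Ppargc1b, a coactivator of mitochondrial genes, differed by -0.38 on average (adjusted p = 0.0859). Ppara, the fatty acid receptor, differed by -0.47 between KO and WT on the low-fat diet (adjusted p = 0.222) and by -0.11 on the high-fat diet (adjusted p = 0.996); the test of the difference between these gave 0.36 (adjusted p = 0.827). Lpin1, a phosphatidate phosphatase and coactivator, had the largest difference between diet effects of the list, at -1.78 (adjusted p = 0.869).

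Between KO and WT on the low-fat diet, 14 of the 16 tested genes of other mitochondrial fatty acid oxidation had a log2 difference below 0, against 5 of the 8 beta-oxidation genes and 48.5% of all tested genes. The median of the 16 was -0.08, against 0.005 over all tested genes, the lowest was Acot2 at -0.94 (adjusted p = 0.407), and 0 passed by limma (2 lower at an unadjusted p under 0.05, as were 4.16% of all genes). On the high-fat diet 7 of the 16 lay below 0, with a median of 0.02. The difference between these genotype effects did not pass for any of the 16 by limma (0 at an unadjusted p under 0.05).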
